A study of Rattus norvegicus with 12 samples.

Results

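The genes of the cytosolic ribosomal proteins were examined in the rat ventral prostate, a lobe of the gland that depends on androgen. Members were the genes whose symbol is Rpl or Rps with a digit, together with Rplp0, Rplp1, Rplp2 and Rpsa. Symbols that begin with Rps6k, which name S6 kinases, were left out (6 genes). This gave 74 of the 14506 genes measured: 42 of the large subunit, 3 of the stalk, 26 of the small subunit, and 3 with another kind of name, the ribosomal protein S19 binding protein Rps19bp1, Rpl17-ps16 and Rps4y2. The 262 probe sets that carry these symbols were reduced to 1 per gene by taking that with the highest mean over the 12 arrays.

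Messenger RNA from ventral prostate was measured on 12 arrays, 3 in each of 4 groups of male Wistar rats that were 90 days old at treatment. Control rats were intact and given corn oil, the vehicle. Castrated rats had both testes removed under anaesthesia with 150 mg/kg of ketamine plus 10 mg/kg of xylazine. Estradiol rats were intact and given 17β-estradiol at 25 mg/kg in corn oil, and combined rats were castrated and given that same dose. Tissue was taken 3 days later in every group. The labels do not say whether rats that were only castrated had vehicle, and list anaesthesia only with the orchiectomy, so surgery, anaesthesia and loss of the testes cannot be told apart. The design names more rats than there are arrays and does not say whether tissue was pooled. Nothing in the labels says which animal an array came from, and p-values therefore speak only of the spread among these arrays, part of which may be technical.

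Ribosomal proteins coat and fold the ribosomal RNA of the subunits that read and translate messenger RNA. Their genes are active in every cell, and their mRNAs are known for beginning with a C followed by a run of pyrimidines, the 5′ terminal oligopyrimidine tract, through which signals of the growth-sensing kinase mTOR set how much of the mRNA is translated. The prostate epithelium secretes large amounts of protein under androgen, and the gland shrinks after androgen is withdrawn. An array measures mRNA level only, and says nothing of translation or of the amount of ribosomes.

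The start region of these genes carries the feature for which the family is known, and so is shown for 6 members that stood out in a comparison and for 3 widely used as reference genes. RefSeq's table for the GRCr8 build held a start for 60 of the 74 members. Each line gives 15 bases before and 15 bases from the annotated start, so that the 16th base is the start itself, read 5′ to 3′ on the gene's strand. Capitals mark a C followed by at least 4 bases that are each C or T, to the end of that run. Where several such C lay within 10 bases of the start, the nearest was taken. Bases just before the marked C can be C or T too, so the capitals can be the end of a longer stretch.
Rpl23, chr10:83272170-83272199, minus strand: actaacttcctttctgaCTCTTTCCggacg
Rpl36a, chrX:102059434-102059463, plus strand: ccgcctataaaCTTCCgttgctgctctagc
Rps21, chr3:187724023-187724052, plus strand: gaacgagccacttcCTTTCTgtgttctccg
Rpl7a, chr3:30637121-30637150, plus strand: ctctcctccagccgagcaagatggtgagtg
Rps2, chr10:14251833-14251862, plus strand: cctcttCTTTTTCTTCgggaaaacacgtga
Rps26, chr7:1643390-1643419, minus strand: gagagccgccgggtcCTCTTTCgagtcttg
Rplp0, chr12:46718376-46718405, minus strand: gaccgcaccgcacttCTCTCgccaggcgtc
Rps18, chr20:4933730-4933759, plus strand: cacgtcacttccgctCTCTCTTCCacagga
Rpl19, chr10:83519049-83519078, plus strand: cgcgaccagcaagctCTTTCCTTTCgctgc
In Rps26, Rplp0, Rps18 and Rpl19 the marked C is the annotated start. In Rps21 it lies 1 base before the start, in Rpl36a 4 bases and in Rps2 9 bases before it, and in Rpl23 2 bases after it. In all of these but Rpl36a and Rpl23 the base before the marked C is also C or T. In Rps2 all 15 bases before the start are C or T. In Rpl7a no such C lies within 10 bases of the start, though its line opens with C and T bases. Over the family, 22 of 60 members (36.7%) had such a C on the annotated start, against 2.63% of the 33469 starts in the table. Within 10 bases of the start 44 of 60 (73.3%) had it, against 28.9% of all starts. Among 63 genes of mitochondrial ribosomal proteins, the shares were 3.17% and 36.5%. From a list of translation elongation and other mRNAs with a pyrimidine start, 14 genes had a start in the table. Of these, 0 had such a C on the annotated start and 10 (71.4%) within 10 bases. That list is named for this feature, so its shares are not an independent comparison. A match describes these letters only.

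Values are the deposited ones, taken as log2 levels, on which 1 unit is 2-fold. Levels of different probe sets are not comparable amounts. For the members they ran from a mean of 4.48 for Rps27 to 12.84 for Rps29. Rps29, Rps4x and Rpl32 had the highest means, and Rps27, Rpl22l1 and Rpl17-ps16 the lowest. In all, 68 members lay above the median level of all genes measured. The median member spanned 0.97 from its lowest to its highest array, and the median of all genes was 0.99.

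Estradiol arrays 1 and 2 stood apart from the other 10 arrays. On estradiol array 1, 26 members lay more than 0.5 above the median of the other arrays and 16 more than 0.5 below it, from 2.44 above for Rpsa to 1.33 below for Rpl18. On estradiol array 2, 21 members lay more than 0.5 below, led by Rps21 at 1.41 below, and none that far above. Without these arrays the median member spanned 0.67 and the median gene 0.58. All 4 groups share 1 estimate of the spread, so these arrays widen the errors of every comparison, and the counts of genes that passed are given with and without them. Leaving both out leaves 1 estradiol array, which is then assumed to vary like the other groups. When arrays were weighted, that array had a lower weight (0.191) than estradiol array 2 (0.695), and estradiol array 1 the lowest (0.0879). Defining markers of the labelled tissue were high in the controls, where the ventral prostate secretory proteins Pbsn and Andpro stood at 11.20 ± 0.61 and 12.73 ± 0.09 (mean ± SD, n = 3).

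**Figure D1:**
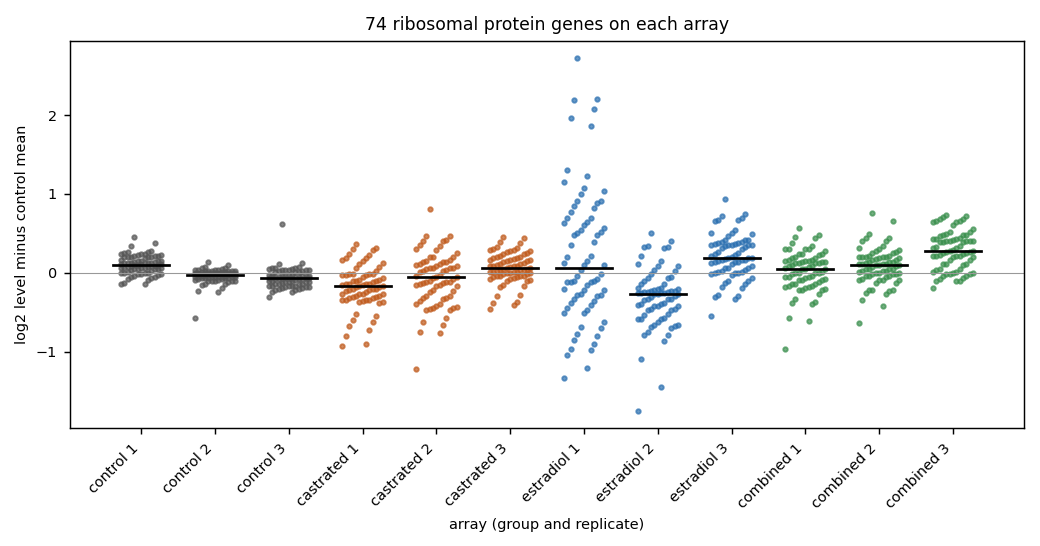
Log2 level of each of the 74 members minus its control mean, on each of the 12 arrays (points), with the median of the members as a bar. The points of estradiol array 1 spread from more than 1 below to more than 2 above the control mean, and most of those of estradiol array 2 lie below 0, while the bars of all groups overlap in range.

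The median level of the 74 members was 10.58 to 10.81 on the control arrays, 10.34 to 10.75 on the castrated, 10.17 to 10.79 on the estradiol and 10.64 to 10.96 on the combined arrays. These ranges overlap between all groups. In bulk tissue, fewer cells of a type and less RNA per cell cannot be told apart.

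Castration was compared with control to see what loss of the testes did to these mRNAs at 3 days. No member passed the test (limma, adjusted p under 0.05), while 5.54% of all genes did, and 5 members (6.76%) had an unadjusted p under 0.05, against 16.1% of all genes. The median difference was -0.07, against 0.01 over all genes, and 25 of 74 members lay above 0. The 95% interval lay wholly within a 2-fold change either way for 65 members, and within a 1.5-fold change for 30. These intervals exclude a fall of more than 2-fold for most of the family, while smaller shifts were within the error.

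The 3 members with the smallest p were Rpl36a, Rps21 and Rpl22l1. Rpl36a, a large subunit protein at the site where spent transfer RNA leaves, was at 11.47, 11.41 and 11.23 in controls and at 11.73, 12.18 and 11.83 in castrated rats. All castrated arrays were above all control arrays, with a log2 difference of 0.54 (SE 0.18, adjusted p = 0.111). Rps21, a small subunit protein, was at 9.59, 9.22 and 8.94 in controls and at 8.35, 8.04 and 8.85 in castrated rats. Here every castrated array was below every control array, with a difference of -0.84 (SE 0.33, adjusted p = 0.198). Rpl22l1, the paralog of Rpl22, was at 6.19, 5.49 and 5.53 against 5.01, 5.07 and 5.28, also without overlap, and differed by -0.62 (SE 0.25, adjusted p = 0.230).

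Without estradiol arrays 1 and 2, 16.6% of all genes passed in this comparison, and of the members Rpl36a rose (adjusted p = 0.0141) and Rps21 fell (adjusted p = 0.0309), with the differences as before. The same members passed when only the 6 arrays compared were fitted, among 12.9% of all genes. Castrated arrays lay wholly above control arrays in 9 members, 12.2% of them, against 18.8% of all genes. They lay wholly below in 5 members (6.76%), against 13.7% of all genes. The 9 were Rpl36a, Rpl5, Rplp0, Rpl7a, Rps26, Rps2, Rpl23, Rps9 and Rpsa, and the 5 were Rps21, Rpl22l1, Rps15, Rpl38 and Rplp2.

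**Figure D2:**
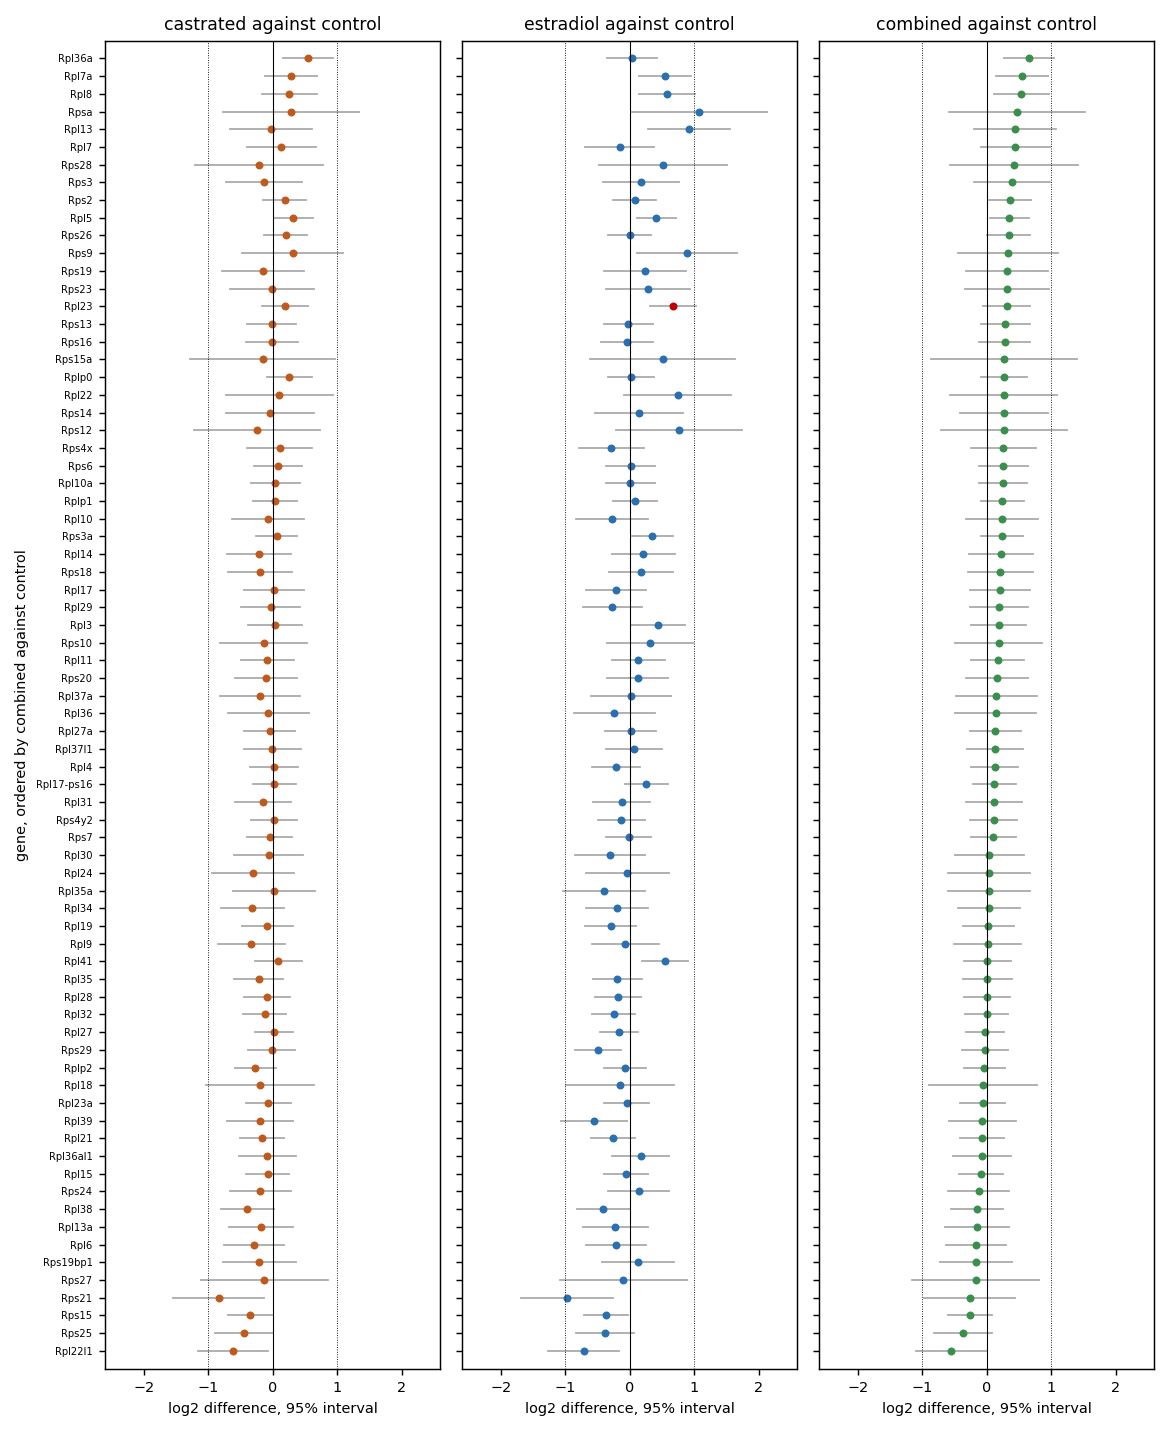
Log2 difference from control (points) with its 95% interval (lines) for each of the 74 members, after castration, estradiol and both; dotted lines mark a 2-fold change, and red marks the member that passed. Only Rpl23 under estradiol is red, and most intervals lie between the dotted lines.

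Estradiol in intact rats was compared with control, and 1 member, Rpl23, rose, while 7.99% of all genes changed. Rpl23 is a large subunit protein that can also bind Mdm2, the ligase that degrades p53. It stood at 8.22, 8.24 and 8.26 in controls and at 9.24, 8.59 and 8.92 in estradiol rats. The control arrays lay close together, and all estradiol arrays lay above them. The difference was 0.67 (SE 0.17, adjusted p = 0.0289), or 1.59-fold, and it was 0.67 (adjusted p = 0.0219) without estradiol arrays 1 and 2. The call held in 16 of 21 alternative settings. It was lost without control array 1, 2 or 3 (adjusted p = 0.0978, 0.101 and 0.0892), with array weights and when only the 6 arrays compared were fitted.

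In the other treated groups Rpl23 was at 8.40, 8.35 and 8.54 after castration and at 8.45, 8.52 and 8.68 after both. Both groups lay wholly above control, with differences of 0.19 (adjusted p = 0.738) and 0.31 (adjusted p = 0.471) that did not pass.

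Next by p under estradiol were Rpl41 and Rpl13. Rpl41, among the shortest proteins known, was at 11.73, 11.75 and 11.70 in controls and at 12.57, 12.05 and 12.19 in estradiol rats, a difference of 0.55 (SE 0.17, adjusted p = 0.0626) without overlap. Rpl13 was at 8.75, 8.23 and 9.42 in controls and at 10.11, 9.31 and 9.73 in estradiol rats, where the groups overlap (difference 0.92, SE 0.30, adjusted p = 0.0714). The other probe sets of Rpl13 gave less under estradiol, from 0.45 to 0.59. Among all 74 members 15 (20.3%) had an unadjusted p under 0.05, against 30.2% of all genes, of which 10 lay above 0 and 5 below, the latter being Rps21, Rps29, Rpl22l1, Rps15 and Rpl39. Estradiol arrays lay wholly above control arrays in 7 members (9.46%), against 12.3% of all genes, and wholly below in 5 (6.76%), against 15.1%.

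The rest of the family had no common direction under estradiol. The median difference was -0.01, against 0.07 over all genes, with 36 of 74 members above 0. Its sign depended on scaling: it was 0.20 after quantile normalization and -0.13 after centring array medians, a step that shifted the median gene by -0.12. The members above 0 were then 53 and 27. The array set mattered as much, and 57 members lay above 0 when estradiol arrays 1 and 2 were left out. Without estradiol arrays 1 and 2 the median was 0.19 and 5.05% of all genes passed, and Rpl23, Rpl7a, Rpl8 and Rpsa rose. Without estradiol array 2 alone 6 members rose (8.11%), while 6.82% of all genes passed. Without estradiol array 3 alone 36.7% of all genes passed, and 3 members rose and 7 fell, the latter being Rpl19, Rpl22l1, Rpl30, Rpl39, Rps21, Rps29 and Rps4x.

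Rpsa, the small subunit protein that is also known as a laminin receptor, shows how far a single array reached. It was at 9.18, 8.99 and 9.13 in controls and at 11.82, 8.90 and 9.80 in estradiol rats. Array 1 was highest and array 2 lowest of all 12 arrays. The difference over all arrays was 1.07 (SE 0.49, adjusted p = 0.161).

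The combined treatment was compared with control, and no member passed, while 4.32% of all genes did. Of the members 7 (9.46%) had an unadjusted p under 0.05, against 14.7% of all genes. The median difference was 0.14, against 0.04 over all genes, and 54 of 74 members lay above 0. Combined arrays lay wholly above control arrays in 21 members (28.4%), against 21.1% of all genes, and wholly below in 2 (2.7%), Rps15 and Rps19bp1, against 15.8%. The 95% interval lay within a 2-fold change for 64 members. By subunit, the median was 0.08 for the 42 large subunit genes, 0.24 for the 3 stalk genes and 0.26 for the 26 small subunit genes.

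Rpl36a again had the smallest p. The combined arrays were at 11.94, 12.03 and 12.08, all above the control arrays given before, and the difference was 0.65 (SE 0.18, adjusted p = 0.0619). In estradiol rats it was at 11.22, 11.77 and 11.23, which overlaps control, with a difference of 0.03 (adjusted p = 0.908). The high arrays of Rpl36a were thus those of rats without testes and 1 estradiol array. Rpl7a, also a large subunit protein, was at 9.66, 9.46 and 9.42 in controls and at 9.97, 10.01 and 10.17 in combined rats (difference 0.54, SE 0.19, adjusted p = 0.150). In castrated rats it was at 9.66, 9.80 and 9.90, and in estradiol rats at 10.40, 9.62 and 10.17. Rpl8, a large subunit protein near the catalytic centre, was at 9.27, 9.31 and 9.36 in controls and at 9.79, 9.76 and 9.99 in combined rats, a difference of 0.54 (SE 0.20, adjusted p = 0.194). The combined arrays of both genes were wholly above control.

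Without estradiol arrays 1 and 2, 14.5% of all genes passed for the combined treatment. Of the members 6 rose, 8.11% of them, and none fell. They were Rpl36a (adjusted p = 0.00608), Rpsa (adjusted p = 0.00770), Rpl7a (adjusted p = 0.00783), Rpl8 (adjusted p = 0.0136), Rps2 (adjusted p = 0.0285) and Rps26 (adjusted p = 0.0379). Their differences, which those arrays do not enter, ran from 0.34 for Rps26 to 0.65 for Rpl36a. When only the 6 arrays compared were fitted 10 members rose (13.5%) and 19.8% of all genes passed, adding Rpl23, Rpl5, Rps4x and Rps9. With array weights 11 rose and 2 fell, Rpl22l1 and Rps25, while 28.5% of all genes passed. Without estradiol array 1 or 2 alone Rpl36a and Rpl7a rose, 2.7% of the members, while 10.2% and 5.29% of all genes passed. Without estradiol array 3 Rpl36a did, while 6.2% of all genes passed.

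Rps2, a small subunit protein at the entry of the mRNA channel, was at 11.79, 11.84 and 11.89 in controls, 12.03, 11.93 and 12.11 in castrated, 11.74, 11.77 and 12.23 in estradiol and 12.15, 12.29 and 12.16 in combined rats. Castrated and combined arrays were all above control, and those of estradiol were spread across both. Rps26, a small subunit protein at the mRNA exit, was at 11.03, 11.07 and 11.08 in controls, 11.13, 11.36 and 11.30 in castrated, 10.78, 11.09 and 11.31 in estradiol and 11.36, 11.47 and 11.37 in combined rats. Its order of arrays was the same kind: control lowest apart from 1 estradiol array, combined highest together with castrated array 2. Rpsa was at 9.34, 9.44 and 9.39 in castrated and at 9.54, 9.51 and 9.65 in combined rats, above control in every array of both groups.

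**Figure D3:**
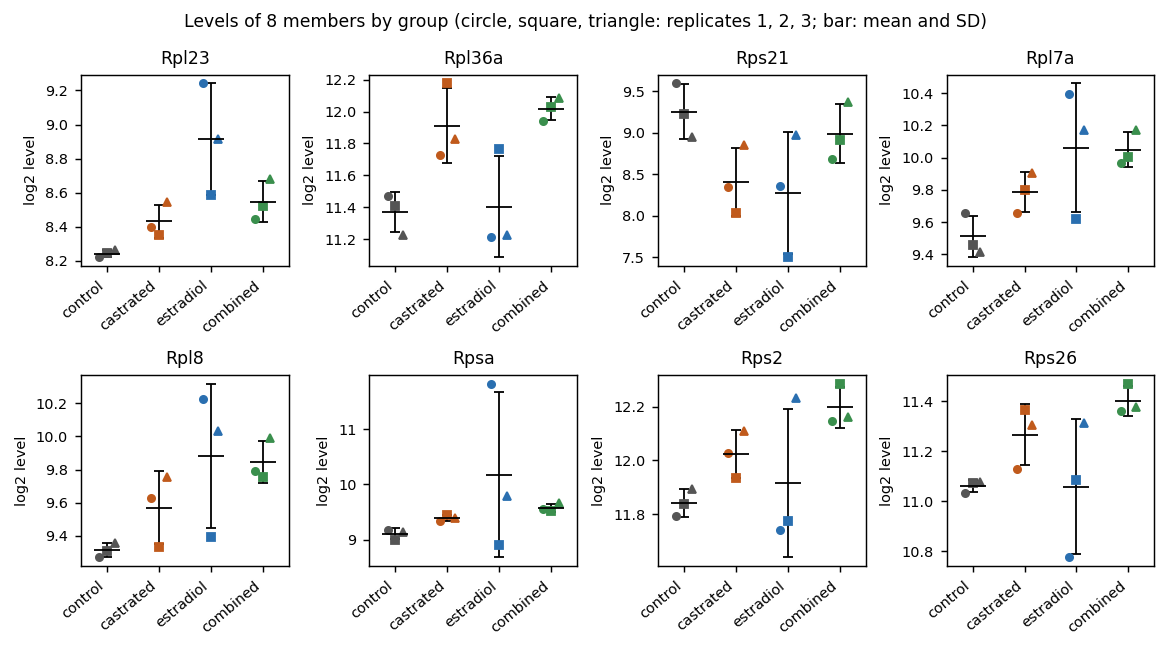
Log2 levels of Rpl23, Rpl36a, Rps21, Rpl7a, Rpl8, Rpsa, Rps2 and Rps26 in the 4 groups, with each array as a point and the mean and SD of 3 arrays as bars. The SD of the estradiol arrays is the largest of the 4 groups in all 8 genes, and combined arrays lie close together in Rpl36a, Rps2 and Rps26.

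Estradiol given to castrated rats was compared with castration alone, a comparison whose differences do not use the estradiol arrays of intact rats. Of all 14506 genes 0% passed, and no member had an unadjusted p under 0.05, against 153 genes in all (1.05%). The members nevertheless lay mostly on the same side. In 69 of 74 the combined mean was above the castrated mean, against 52% of all genes, and the median difference was 0.17, against 0.01. The 5 on the other side were Rpl41, Rpl27, Rps27, Rps29 and Rpl15, at -0.07 to -0.01. Combined arrays lay wholly above castrated arrays in 17 members (23%), against 5.66% of all genes, and wholly below in 0 members, against 6.64%.

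The size was small for each gene. The 3 members with the smallest p were Rps3 (0.52, SE 0.27, adjusted p = 0.9999), Rpl14 (0.43, SE 0.23) and Rps18 (0.41, SE 0.23). Rps3, a small subunit protein that also acts in DNA repair, was at 9.76, 9.96 and 10.07 in castrated rats and at 10.25, 10.37 and 10.75 in combined rats, with no overlap, and at 10.33, 10.02 and 9.85 in controls. Rpl14 was at 10.72, 10.29 and 10.95 in castrated rats and between 10.95 and 11.30 in combined rats, where the groups meet without crossing. Rps18 was at 10.49, 10.68 and 10.80 against 10.91, 10.93 and 11.35. The 95% interval lay within a 2-fold change for 65 members.

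The shared direction stood under each scaling, with 64 members above 0 after quantile normalization and 61 after centring array medians, at medians of 0.15 and 0.11. Leaving out any 1 array gave medians of 0.10 to 0.26. It was not spread evenly over arrays: castrated arrays 1 and 2 had the lowest member medians of that group, 10.34 and 10.42 against 10.75 on array 3, and combined array 3 the highest of all 12. That array had 13 members more than 0.5 above the median of the others. Castrated array 3 lay within the range of the combined arrays. Genes of 1 array share its RNA and its scaling, so the number of members on a side is a description and not a count of independent results. With estradiol arrays 1 and 2 left out, 1 gene of all passed (0.00689%), and no member did.

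**Figure D4:**
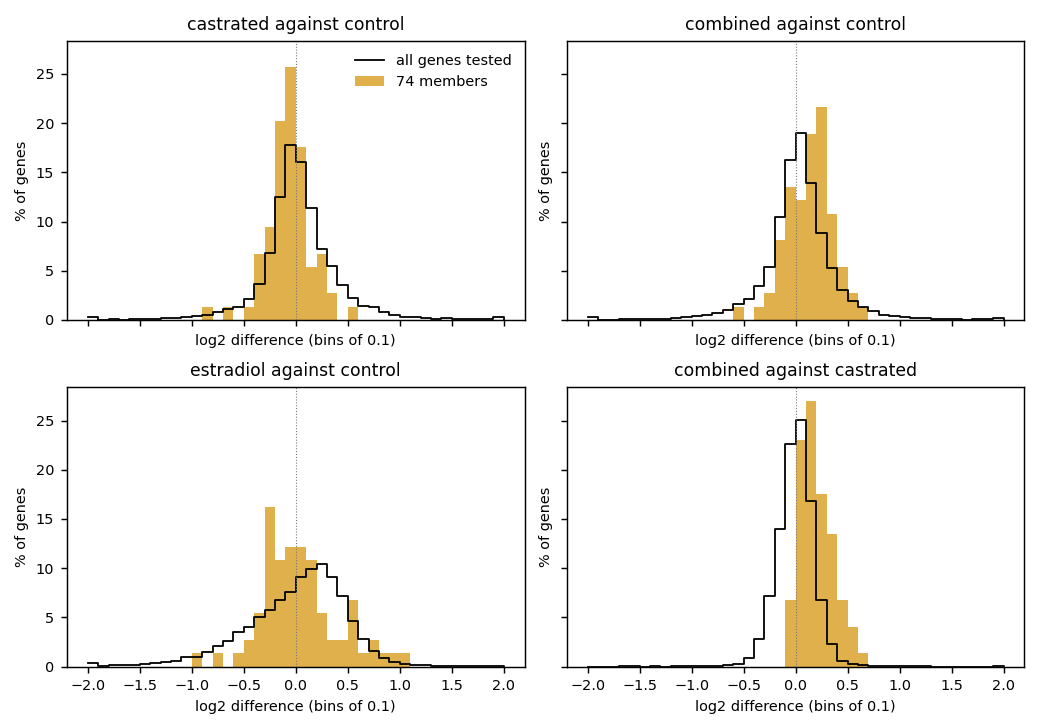
Share of genes by log2 difference in bins of 0.1, for the 74 members (filled) and all genes tested (line), in 4 comparisons; values beyond 2 are drawn in the end bins. The filled bars lie to the right of 0 for the combined treatment against castration, where 69 of 74 members are above 0, and are centred near 0 after castration.

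The remaining comparisons all use the estradiol arrays of intact rats. In combined against estradiol no gene passed (0%) and the member median was 0.11, or -0.07 without estradiol arrays 1 and 2. In estradiol against castrated no gene passed either (0%), and the median was 0.05, or 0.26 without those arrays. In this comparison 44 of 74 members lay above 0, or 68 with the 1 estradiol array that remains without them. The sign of the first thus turned with the choice of arrays. The second was above 0 with either set of arrays, but -0.07 after centring array medians and -0.17 with array weights. For combined against estradiol the smallest p belonged to Rpl36a (0.61, SE 0.18), Rpl41 (-0.54, SE 0.17) and Rps29 (0.46, SE 0.17), each with an adjusted p = 0.241, and 9 members (12.2%) had an unadjusted p under 0.05, against 18.9% of all genes. For estradiol against castrated it belonged to Rpl13 (0.94, SE 0.30), Rpl23 (0.48, SE 0.17) and Rpl36a (-0.51, SE 0.18), with adjusted p = 0.143 to 0.145, and 6 (8.11%) had an unadjusted p under 0.05, against 27.3%. Without estradiol array 3, 16 members rose and 1 fell in combined against estradiol, while 28.6% of all genes passed, and 1 rose and 7 fell in estradiol against castrated, while 37.3% did.

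The interaction asks whether estradiol acted differently in castrated and in intact rats. No member passed, against 1.1% of all genes, and 5 (6.76%) had an unadjusted p under 0.05, against 14.2%. Rps21 had the smallest p: its estradiol arrays were at 8.36, 7.50 and 8.97 and its combined arrays at 8.68, 8.91 and 9.37. Estradiol thus went with a difference of -0.98 in intact rats and of 0.58 in castrated rats, and the interaction was 1.55 (SE 0.47, adjusted p = 0.148). It was 0.86 (adjusted p = 0.328) without estradiol arrays 1 and 2. Rpl41 (-0.62, SE 0.24) and Rpl38 (0.65, SE 0.27) followed. With array weights Rps21 passed, as did 7.25% of all genes, and without estradiol array 3 Rps21, Rpl39, Rps29 and Rps4x did, as did 11.6%.

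The members were next taken by role. The stalk proteins Rplp0, Rplp1 and Rplp2 form the arm of the large subunit that recruits the factors of translation. Rplp0 was at 11.09, 11.28 and 11.28 in controls, 11.52, 11.30 and 11.59 in castrated, 11.43, 10.91 and 11.36 in estradiol and 11.59, 11.41 and 11.44 in combined rats. Castrated and combined arrays were above control in every case, by 0.26 and 0.27 (adjusted p = 0.543 and 0.567). Rplp2 lay on the other side after castration, at 11.58, 11.29 and 11.60 against 11.82, 11.76 and 11.69, a difference of -0.27 (adjusted p = 0.447). Rplp1 differed by 0.03 after castration, 0.08 under estradiol and 0.24 after both. None of the 3 passed in any comparison.

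Rpl5 and Rpl11 carry the 5S ribosomal RNA into the large subunit and, when free, bind and hold back Mdm2. Rpl5 was at 11.65, 11.39 and 11.55 in controls, and every treated array was above these: 11.82, 12.00 and 11.73 after castration, 12.04, 11.84 and 11.94 under estradiol and 11.83, 11.84 and 11.96 after both. The differences were 0.32, 0.41 and 0.35 (SE 0.14 each; adjusted p = 0.270, 0.0812 and 0.241). Under estradiol the other probe sets of Rpl5 gave 0.88 each. Of 21 alternatives Rpl5 passed in 1 after castration, 3 under estradiol and 2 after both. Those under estradiol were means of probe sets (0.73, adjusted p = 0.0237), quantile normalization (0.65, adjusted p = 0.0302) and leaving out estradiol array 3 (0.41, adjusted p = 0.0428). Rpl11 overlapped control in all 3 treated groups, with differences of -0.08, 0.13 and 0.17. Of 12 measured genes of Mdm2, p53 targets and their partners, 1 rose after castration, Sesn1, and none passed in the other treatments. That is 8.33% of them after castration, against 3.17% of all genes. When estradiol arrays 1 and 2 were left out, 1 rose in each treatment and 1 fell after both.

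Rps6, the small subunit protein that S6 kinases phosphorylate, differed by 0.08, 0.02 and 0.25 after castration, estradiol and both (adjusted p = 0.947, 0.957 and 0.647). Of the 6 S6 kinase genes 1 fell after castration, 2 under estradiol and 0 after both, and none rose. Their shares that fell were 16.7%, 33.3% and 0%, against 2.36%, 5.48% and 2.21% of all genes. The counts that fell were 2, 1 and 2 without estradiol arrays 1 and 2. Rps6kb2 fell by 0.97 on the log2 scale after castration (adjusted p = 0.0312) and by 0.94 under estradiol (adjusted p = 0.0324), and Rps6kb1 fell by 1.25 under estradiol (adjusted p = 0.0102). Without estradiol arrays 1 and 2 the estradiol difference of Rps6kb2 did not pass (adjusted p = 0.167), and that of Rps6kb1 was -0.72 (adjusted p = 0.0218).

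Rpl13a, Rps18, Rpl19 and Rpl32 are often used as reference genes in expression assays. Rpl19 was at 11.97, 11.84 and 11.96 in controls, 11.82, 11.67 and 12.01 in castrated, 11.30, 11.53 and 12.05 in estradiol and 11.92, 11.88 and 12.03 in combined rats. Apart from estradiol arrays 1 and 2 its arrays overlapped between groups. Rpl32 differed from control by -0.12, -0.25 and 0.00 under castration, estradiol and both, Rpl19 by -0.09, -0.30 and 0.02, Rps18 by -0.20, 0.18 and 0.21 and Rpl13a by -0.18, -0.22 and -0.16. None passed, and the 95% intervals of Rpl19 after castration (-0.48 to 0.31) and after both (-0.37 to 0.41) exclude a 1.5-fold change.

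Several members have a paralog. Rpl22 was at 8.12, 7.77 and 7.90 in controls and at 9.89, 7.82 and 8.31 in estradiol rats, and differed by 0.10, 0.75 and 0.26 under castration, estradiol and both. The estradiol difference of Rpl22 was 0.39 without estradiol arrays 1 and 2. Its paralog Rpl22l1 differed by -0.62, -0.72 and -0.55 (adjusted p = 0.230, 0.0909 and 0.339). Rpl36al1, a copy of the Rpl36a family, differed by -0.08, 0.17 and -0.08, while Rpl36a itself differed by 0.54, 0.03 and 0.65. Rpl10 differed by -0.07, -0.27 and 0.24, Rpl3 by 0.04, 0.44 and 0.18, Rpl7 by 0.13, -0.16 and 0.44, Rpl39 by -0.19, -0.55 and -0.07 and Rps27 by -0.13, -0.10 and -0.18, and none of these passed. Rps27a, Rpl10l, Rpl3l, Rps27l, Rpl39l, Rpl36al and Rpl7l1 were not analysed here.

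Ribosomal protein genes have many processed copies, and probe sets can read several of them. In RefSeq 977 loci carry a member's symbol followed by l or -ps and a number, led by Rps2 with 36. Such symbols take in paralogs that are members themselves, such as Rpl22l1 and Rpl36al1, so not all need be processed copies. Of the members 55 had 2 or more probe sets, up to 21 for Rpl21 and 13 for Rpl7a, so a value may hold signal from copies. The probe sets of a member mostly moved together after castration and after both. Their differences had the same sign in 51 of 55 members after castration, in 47 after both, and in 51 for combined against castrated. The median spread was 0.06 after castration and 0.08 after both. Under estradiol the signs agreed in most of these members but differed in others, among them Rpl23a, Rpl35a, Rps2 and Rps26. For Rpl36a the 2 probe sets gave 0.52 and 0.54 after castration, and for Rps21 the 4 gave -0.84 to -0.52. The 13 of Rpl7a gave 0.43 to 0.54 after both. Rpl23 had 1 probe set.

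Genes that build or drive the ribosome were set beside its proteins. Of all genes 3.17% rose after castration, 2.51% under estradiol and 2.12% after both, and 2.36%, 5.48% and 2.21% fell. When estradiol arrays 1 and 2 were left out, the shares that rose were 10%, 2.78% and 7.61%, and those that fell 6.6%, 2.27% and 6.9%. Of 54 measured genes of ribosome biogenesis, 3 rose after castration (5.56%), 6 under estradiol (11.1%) and 2 after both (3.7%), and none fell. The counts were 10, 4 and 6 with those arrays left out, and again none fell. Their medians were 0.19, 0.15 and 0.14. Ncl, the nucleolar protein nucleolin, rose by 1.01, 1.16 and 0.93 (adjusted p = 0.00489, 0.00218 and 0.00969), and Nob1, the nuclease that finishes the small subunit RNA, by 0.87, 0.67 and 0.78 (adjusted p = 0.0120, 0.0393 and 0.0260). Of 15 measured genes of translation elongation and other mRNAs with a pyrimidine start, 1 rose after castration, 2 under estradiol and 1 after both. Npm1, nucleophosmin, rose in all 3, by 0.81, 1.07 and 1.02 (adjusted p = 0.0104, 0.00191 and 0.00271). It was thus the only gene of this list to rise after castration and after both. The elongation factor gene Eef1a1 differed by 0.15 after castration (adjusted p = 0.774). Of 31 initiation factor genes, more rose after castration and after both when estradiol arrays 1 and 2 were left out, and some fell there. The full set of arrays gave 1 that rose in each treatment. With all arrays it was Eif4b, which rose by 1.0, 0.82 and 1.0 (adjusted p = 0.00119, 0.00493 and 0.00126), and Eif1ax and Eif2s2 fell under estradiol, which neither did without estradiol arrays 1 and 2 (adjusted p = 0.141 and 0.342). Ncl, Nob1, Npm1 and Eif4b passed in each treatment without those arrays too, the highest adjusted p being 0.0154 for Ncl under estradiol.

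None of 9 measured genes of RNA polymerase I and its factors, which make the ribosomal RNA precursor, passed. Their medians were 0.30, 0.01 and 0.18, and 2, 1 and 0 of them had an unadjusted p under 0.05. With estradiol arrays 1 and 2 left out, 3 of them rose after castration and 1 after both. Of 23 genes of growth control of translation, 2 rose and 1 fell after castration, 1 rose and 2 fell under estradiol, and 1 rose after both. With those arrays left out the counts were 4 up and 4 down, 3 up and 1 down, and 4 up and 3 down. Sesn3, an inhibitor of mTOR complex 1 signalling, rose in every treatment, by 1.59, 1.24 and 1.55 (adjusted p = 0.000123, 0.000984 and 0.000157), and passed in each without those arrays.

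Markers of other cell types also passed in these comparisons, to be read against the shares of all genes given above. Of 12 macrophage markers 9 rose after castration, 2 under estradiol and 5 after both, and none fell. Under estradiol 100% of these markers had a positive difference all the same. Leaving out estradiol arrays 1 and 2 leaves 1 estradiol array, and what the low count of 2 rests on was not tested. Their summed level on a linear scale was 1770 to 2350 in controls, 4740 to 6480 in castrated, 2010 to 4760 in estradiol and 4070 to 4970 in combined rats, and no marker reads 0 on this scale. Of 11 measured markers of the secretory epithelium 5 rose and 2 fell after castration, 3 rose and 3 fell under estradiol, and 5 rose and 1 fell after both. With those arrays left out the counts were 6 up and 3 down, 2 up and 0 down, and 5 up and 3 down. The 5 measured markers of other accessory glands summed to 102 to 203 in controls and to 85.0 to 808 in estradiol rats. Of 5 proliferation markers 4, 3 and 1 rose, or 5, 3 and 5 without those arrays. Of 8 smooth muscle markers 0, 1 and 0 fell, and of 7 endothelial markers 0, 2 and 0 fell, and without those arrays none of either fell. Their part in the values of the ribosomal protein genes was not tested.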

How the data were processed

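Total RNA (500 ng) from 30 mg of ventral prostate was labelled as biotinylated cDNA and hybridized to Affymetrix arrays, per the labels' protocols. The deposited values, 1 per probe set and array, were made by the authors with Affymetrix Expression Console, per the submitters' processing notes, and were taken as log2 because of their range. The sources used here give neither the normalization nor the log base. Of 29214 probe sets 15310 carry 1 gene symbol in GEO's platform annotation, and 14506 genes were tested, each by its probe set of highest mean. No depth applies to arrays; 3 per group limit the precision.

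Differences were fitted with limma 3.58.1 in R 4.3.3 (lmFit, eBayes) over all 12 arrays with 1 mean per group, 8 residual and 5.29 prior degrees of freedom, 2-sided, with Benjamini-Hochberg adjustment over all genes and a threshold of 0.05. The fit was tested on simulated data. "Rose" and "fell" mean passed. Groups do not overlap where every array of 1 lies beyond every array of the other. Members and gene lists were chosen with earlier results of these data known. Named were, per comparison, up to 6 members that passed in each direction or, where fewer than 3 passed, the 3 with the smallest p, the 3 highest and 3 lowest by mean, a panel by role (stalk, Rpl5 and Rpl11, Rps6, reference genes, members with paralogs), and up to 4 passing genes of each companion list. Members that passed only in an alternative, those singled out by lack of overlap, and Sesn1, Eef1a1 and the S6 kinase genes were named after their values were seen. Mitochondrial ribosomal proteins were listed after the data were seen. Alternatives were quantile normalization, centred medians, a filter on dim genes, means of probe sets, only the groups compared, array weights, no estradiol arrays 1 and 2, a trended robust prior, a replicate block and each array left out. Figures used matplotlib 3.10.9 in Python 3.11.15.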

Additional observations from a re-analysis of the deposited data

How the results depend on the processing

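Counts of members that passed in limma depended on which arrays set the error, as did those of all genes. With array weights 8.11%, 2.7% and 17.6% of members passed after castration, estradiol and both, against 26.1%, 15.9% and 28.5% of all genes. Under estradiol 6.76% of all genes passed after quantile normalization, 8.02% with means of probe sets and 1.36% with only the groups compared. With the filter on dim genes 14.3% passed under estradiol and 8.38% after both. For castrated against control the count of 0 became 2 when only the groups compared were fitted, 6 with array weights and 2 without estradiol arrays 1 and 2, and ran from 0 to 1 over the fits that left out 1 array. For estradiol against control the count of 1 became 6 after quantile normalization, 2 with the filter on dim genes, 2 with means of probe sets, 0 with only the groups compared, 2 with array weights (Rps21 and Rps29, both of which fell) and 4 without estradiol arrays 1 and 2, and ran from 0 to 10 over single arrays left out. For combined against control the count of 0 became 1 with the filter on dim genes, 10 with only the groups compared, 13 with array weights and 6 without estradiol arrays 1 and 2, with 0 to 2 over single arrays. For combined against castrated it was 0 under every alternative. For combined against estradiol it was 0 except without estradiol array 3, with a range of 0 to 17. For estradiol against castrated it became 1 with array weights (range 0 to 8), and for the interaction 1 with array weights (range 0 to 4). Part of this follows from construction, since leaving out or weighting down scattered arrays lowers the shared error. The array weights were lowest for estradiol array 1 (0.0879), estradiol array 3 (0.191) and castrated array 2 (0.351), while estradiol array 2 had 0.695. The weighted fit thus leaned on estradiol array 2, where the fit without estradiol arrays 1 and 2 kept only array 3. The cause of the other changes was not tested.

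Median differences ran, over single arrays left out, from -0.13 to -0.02 for castrated, -0.10 to 0.12 for estradiol and 0.06 to 0.20 for combined against control, from 0.10 to 0.26 for combined against castrated, -0.02 to 0.20 for combined against estradiol and -0.03 to 0.19 for estradiol against castrated. The other alternatives moved these medians by at most 0.22 (estradiol against castrated), in each comparison by less than the SD of the arrays' member medians pooled over the 2 groups compared, which ran from 0.14 to 0.28 and is largest where the scattered estradiol arrays enter. Within that range the sign turned for castrated against control with array weights (0.01), for estradiol against control under 4 of them (0.20 after quantile normalization, 0.0036 with the filter on dim genes, 0.01 with means of probe sets, 0.19 without estradiol arrays 1 and 2), for combined against estradiol after quantile normalization (-0.05) and without those arrays (-0.07), and for estradiol against castrated after centring medians (-0.07) and with array weights (-0.17). Without Rps19bp1, Rpl17-ps16 and Rps4y2, a choice made after the data were seen, no count changed. With the replicate block limma called 1 member in estradiol against control and 0 in the other comparisons, as without it. Same-numbered arrays deviated together (correlation over 0.1) in 7 of 18 pairs, and the 18 ran from -0.16 to 0.28. These correlations do not settle whether same-numbered arrays share a source, which was not tested. The labels give the numbers only as replicates, so they are not taken as pairs.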

Other observations

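The 68 genes of mitochondrial ribosomal proteins, which build the separate ribosome inside mitochondria are given beside the cytosolic family as values, without a test of the difference. After castration 1 fell, Mrpl54 (-0.80, adjusted p = 0.0403), and none rose. Under estradiol Mrpl41, Mrpl49 and Mrps27 fell and Mrps35 rose, and after both treatments Mrpl41 and Mrpl50 fell. Their median differences from control were -0.08, -0.20 and -0.06, against -0.07, -0.01 and 0.14 for the cytosolic members. The medians under estradiol were -0.01 and 0.19 without estradiol arrays 1 and 2. Treated arrays lay wholly below control in 18, 20 and 22 of the 68 after castration, estradiol and both, that is in 26.5%, 29.4% and 32.4% of them, against 13.7%, 15.1% and 15.8% of all genes. The shares of the 74 cytosolic members were 6.76%, 6.76% and 2.7%. Combined arrays lay wholly above castrated arrays in 2 of the 68 (2.94%, against 5.66% of all genes), and 40 of 68 had a higher mean there (median 0.04). Without estradiol arrays 1 and 2, 7 mitochondrial genes fell after castration, 2 under estradiol and 7 after both, or 10.3%, 2.94% and 10.3%, against 6.6%, 2.27% and 6.9% of all genes.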
